A study of Mus musculus with 42 samples.

Results

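The mouse HOX cluster genes were followed in 42 RNA-seq libraries of pluripotent, somatic and germ-like cells exposed to bisphenol S (BPS) or to vehicle. All genes whose symbol is Hoxa, Hoxb, Hoxc or Hoxd followed by a paralogue number were taken, which gave 39 of the 22186 genes measured. The HoxA cluster holds 11 of them at chr6:52155590-52260880 on the minus strand (GRCm38/mm10), and the HoxB cluster 10 at chr11:96194316-96368256 on the plus strand. The HoxC cluster holds 9 at chr15:102921103-103036852 and the HoxD cluster 9 at chr2:74668310-74765142, both on the plus strand. By paralogue number, 8 genes are called anterior here (1 to 3), 15 central (4 to 8) and 16 posterior (9 to 13).

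The study asked how BPS, an estrogen-like plasticizer, changes cells of different kinds, and whether a change in iPSCs is still seen after they become germ-like cells. There were 14 groups of 3 libraries. A dose series of iPSCs received ethanol vehicle or 1, 50 or 100 µM BPS, and Sertoli cells, granulosa cells and directly exposed PGCLCs each received vehicle or 1 µM. In the propagation experiment, iPSCs received vehicle or 1 µM, and PGCLCs were derived from these iPSCs without being exposed themselves. The PGCLCs derived from BPS-exposed iPSCs are compared with those derived from vehicle iPSCs. BPS was present for 24 h and was followed by 24 h of recovery, or 8 h for the directly exposed PGCLCs, which were kept in low-adherence plates and not in sealed flasks. The iPSCs were 1 male line that carries a doxycycline-inducible reprogramming cassette, made from the fibroblasts of a single fetus and grown with 2i and LIF, and all PGCLCs came from it. The PGCLCs were sorted as FUT4+ and ITGB3+ cells from aggregates grown with BMP4, SCF, EGF and LIF. The Sertoli and granulosa cultures were each made from pooled juvenile littermates, males for the first and females for the second, and the Sertoli medium contained retinoic acid. Since the replicates of a cell type share a line or a pool of animals, p-values measure the spread between these samples, which may be technical.

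HOX genes encode homeodomain transcription factors that give cells along the body axis their positional identity. In the embryo the anterior genes of a cluster are switched on first and the posterior genes last, and cells keep the resulting combination, often called a HOX code, into adult tissue. Retinoic acid, WNT signals and the CDX factors open the clusters, Polycomb complexes keep them silent in pluripotent cells, and PBX and MEIS proteins bind DNA together with the HOX proteins.

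Each library held 26693847 to 44524376 reads, so 1 read was worth 0.022 to 0.0385 CPM (read counts scaled to library size). The HOX genes together took 1428 to 16481 reads a library, which is few, so counting error is part of the spread between libraries. The labels were checked against marker genes. All 6 pluripotency markers were expressed (a mean of at least 0.5 CPM) in both vehicle iPSC groups, with a summed level of 4006 to 4278 CPM. They were still at 2528 to 2594 CPM in the directly exposed PGCLC vehicle group and at 1881 to 2427 CPM in the derived one. The 8 primordial germ cell markers summed to 357 to 369 CPM in the directly exposed vehicle group. This was under the 389 to 427 CPM of the vehicle iPSCs, and the derived vehicle group was at 482 to 678 CPM. Kit was the largest part of the iPSC sum, with a mean of 219.1 CPM in the propagation vehicle iPSCs. In the directly exposed vehicle group it was at 89.57 CPM, and Prdm14 and Dppa3 were lower there too. Prdm1, Tfap2c, Nanos3, Dnd1 and Itgb3 had higher means in that group than in either vehicle iPSC group. Tfap2c was at 120.4 CPM against 74.02 CPM in the propagation vehicle iPSCs, and Prdm1 at 50.72 against 29.18 CPM. Mesoderm markers summed to 415 to 584 CPM in the vehicle PGCLCs against 38.5 to 54.2 CPM in the vehicle iPSCs. All 8 Sertoli markers were expressed in Sertoli cells (5463 to 5692 CPM in vehicle). In these vehicle libraries smooth muscle markers summed to 1174 to 1296 CPM, stromal markers to 1104 to 1196 CPM and later germ cell markers to 14.9 to 16.7 CPM. Smooth muscle markers summed to 2158 to 2223 CPM in granulosa vehicle cells. In granulosa vehicle cells 6 of the 7 granulosa markers measured were expressed (2607 to 2679 CPM) and the FSH receptor gene Fshr was under that limit, while markers of stroma summed to 3231 to 3466 CPM there. In these bulk libraries, fewer cells of a type and less RNA per cell cannot be told apart.

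The same limit was used for the HOX genes. Of the 39, 19 were expressed in the dose-series vehicle iPSCs and 18 in the propagation vehicle iPSCs, 14 in Sertoli cells, 26 in granulosa cells, 35 in the directly exposed PGCLC vehicle group and 36 in the derived one. Near this limit, Hoxc11 (0.504 CPM) was just inside and Hoxd11 (0.421 CPM) just outside in the dose-series vehicle iPSCs, and in granulosa cells Hoxa4 (0.522 CPM) was inside and Hoxa9 (0.493 CPM) outside. The 9 genes expressed in all 6 vehicle groups included Hoxb4, Hoxb9, Hoxc4, Hoxc6, Hoxc8, Hoxd4, Hoxd8 and Hoxd9. Hoxa9, Hoxa10, Hoxa11, Hoxa13, Hoxb1 and Hoxd1 were expressed in both PGCLC vehicle groups and in no other vehicle group, and Hoxb13 in the iPSC groups alone. Hoxd12 was expressed in none, with 0.607 CPM in its highest library.

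**Figure D1:**
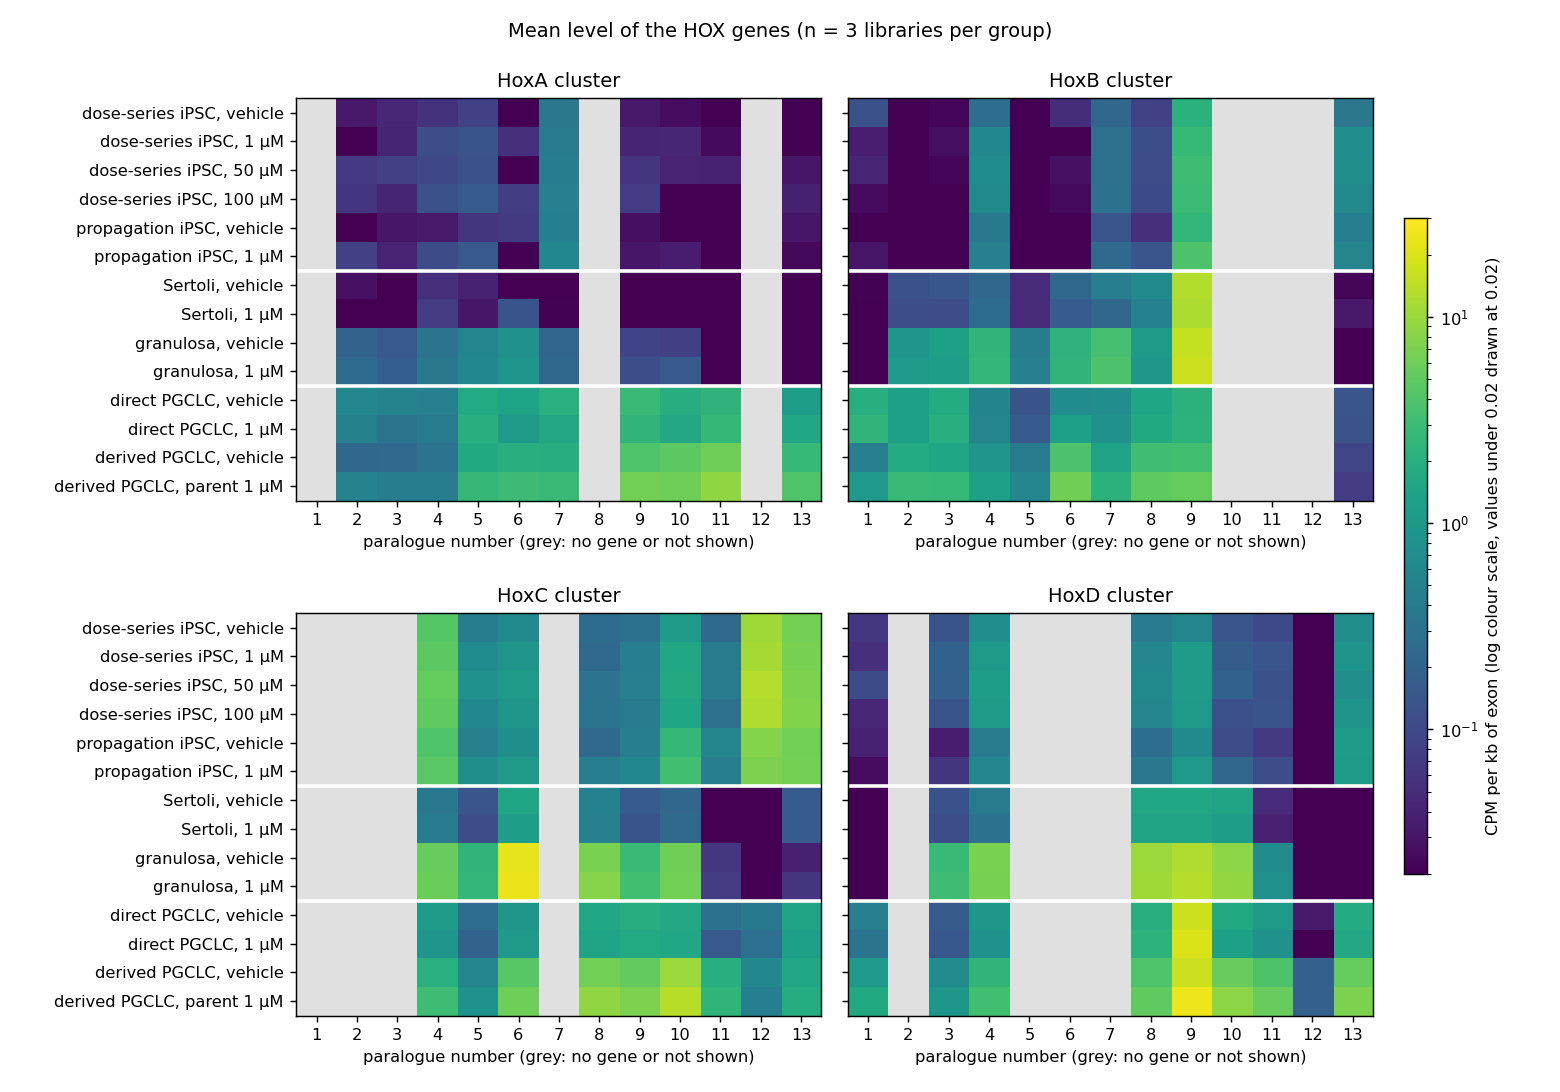
Mean level of the HOX genes shown (CPM per kb of exon, log colour scale) by paralogue number in the 4 clusters, with the 14 groups as rows and n = 3 libraries each. In iPSCs the brightest cells are Hoxc4, Hoxc12 and Hoxc13, in Sertoli cells Hoxb9, in granulosa cells a block from Hoxc4 to Hoxc10 and Hoxd3 to Hoxd10 with Hoxb9, and in PGCLCs most of the 4 clusters with Hoxd9 brightest.

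To compare levels between genes, CPM was divided by exon length in kb. In vehicle iPSCs the HoxC cluster held most of the HOX signal, 73.04% of the summed CPM per kb in the propagation experiment and 74.1% in the dose series. In the propagation vehicle iPSCs Hoxc12 stood at 7.70 ± 0.567 CPM per kb (SD, n = 3), Hoxc13 at 6.29 ± 0.281 and Hoxc4 at 4.05 ± 0.0863. These are the ends of 1 cluster: Hoxc12 and Hoxc13 are its most posterior genes, Hoxc13 being known for its role in hair and nail, and Hoxc4 is its most anterior. The posterior HoxC genes alone made up 55.5% of the signal there. Hoxc10 (2.61 CPM per kb) and Hoxb9 (2.56) came next and lay within each other's spread. The other 3 clusters were represented by Hoxb9, the limb and genital gene Hoxd13 (1.10 CPM per kb) and a few weaker genes.

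In Sertoli cells a single gene stood out. Hoxb9 was at 30.9, 33.8 and 34.2 CPM in the 3 vehicle libraries, which is 12.8 ± 0.698 CPM per kb and 54.6% of the summed HOX signal. Hoxd9 (1.57 CPM per kb), Hoxd8 (1.56), Hoxc6 (1.45) and Hoxd10 (1.45) followed and did not differ from each other beyond their spread. Of the 11 HoxA genes 1 passed the limit, and Hoxc12, Hoxa11 and Hoxd1 had no read in any Sertoli vehicle library. Granulosa cells, the other somatic cells of the gonad, had a broad code: all 15 central genes were expressed, against 6 of the 16 posterior ones. Central genes gave 55.7% and posterior genes 39.2% of the summed HOX signal there. Hoxc6 was highest at 22.9 ± 0.725 CPM per kb, before Hoxb9 (15.6), Hoxd9 (12.6), Hoxd8 (9.92), Hoxd10 (8.36) and Hoxd4 (6.95). HoxC, HoxD and HoxB gave 39.4%, 34.9% and 23.1% of the signal and HoxA 2.61%.

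Both vehicle PGCLC groups expressed most of every cluster, and in both Hoxd9 was highest, at 17.4 ± 1.03 CPM per kb in the directly exposed and 16.5 ± 1.53 in the derived group. The levels behind it included Hoxa9 (2.80 CPM per kb) and Hoxa11 (2.33) in the directly exposed vehicle group, and Hoxc10 (9.89), Hoxc8 (6.32), Hoxa11 (5.91), Hoxd10 (5.55) and Hoxd13 (5.27) in the derived group. Hoxa11, Hoxc10 and Hoxd13 belong to the posterior end of their clusters, which is switched on last in the embryo. Posterior genes gave 57.8% of the signal in the directly exposed and 61.8% in the derived vehicle group.

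The cell types were compared in 1 limma fit of the 18 vehicle libraries, in which 18847 genes were tested and Hoxd12 was not. Genes were counted as different where the p adjusted by Benjamini-Hochberg was at most 0.05. The contrasts share libraries, 4 of them those of the propagation iPSCs. Between Sertoli and granulosa cells, 32 of 38 HOX genes differed, where 69.6% of all genes did, and 29 of the 32 were lower in Sertoli cells. Hoxc10, a gene of the lumbar region, was at 0.482, 0.484 and 0.308 CPM in Sertoli and at 11.98, 12.02 and 11.6 CPM in granulosa cells. The libraries were far apart, with a log2 difference of -4.73 ± 0.15 (SE, limma adjusted p = 1.05e-15). Hoxc4, Hoxc5, Hoxc6, Hoxc8 and Hoxc9 were lower in Sertoli cells by a log2 difference of -3.75 to -4.04, Hoxd4 by -4.10 and Hoxd3 by -4.44. The 3 genes higher in Sertoli cells, Hoxb1, Hoxb13 and Hoxc13, were under 0.6 CPM in every library of both. Hoxb9, the leading Sertoli gene, was itself slightly higher in granulosa cells (38.9 to 41.3 CPM).

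Against propagation iPSCs, Sertoli cells had 14 HOX genes higher and 16 lower, where 89.0% of all genes differed. Hoxb9 was higher by a log2 difference of 2.32 ± 0.08 (limma adjusted p = 8.21e-16) and Hoxd8 by 2.43 ± 0.18. Hoxc4, Hoxc10 and Hoxc13 were lower by -3.43, -3.48 and -5.21, and Hoxc12, at 7.37 to 8.54 CPM in iPSCs, had no read in any Sertoli or granulosa library, so no fold is given. Granulosa cells had 27 HOX genes higher and 9 lower than iPSCs, where 88.2% of all genes differed. Those higher included Hoxd3 (6.08), Hoxd8 (5.09), Hoxc6 (4.88), Hoxc8 (4.75), Hoxd9 (4.24) and Hoxb9 (2.60), all as log2 differences, and Hoxc13 was lower by -6.98.

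Derived PGCLCs against the iPSCs they came from had 33 HOX genes higher and 4 lower of 38, where 73.3% of all genes differed in either direction. Hoxd9 was at 1.62, 1.15 and 1.49 CPM in the vehicle iPSCs and at 32.3, 38.7 and 34.6 CPM in the vehicle PGCLCs, a log2 difference of 4.62 ± 0.19 (limma adjusted p = 1.03e-13). Hoxc8 went from between 0.552 and 0.793 CPM to between 16.8 and 19.3 CPM, and Hoxa11, a gene of the limb and reproductive tract, from at most 0.0368 CPM to between 10.99 and 16.02 CPM. The 4 lower genes were Hoxb13, Hoxc12, Hoxc13 and Hoxc4, and 3 of these 4 had led the iPSCs. Hoxc5 was not called (log2 difference 0.29).

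The vehicle groups of the 2 PGCLC inductions differed in 25 of 38 HOX genes, where 42.5% of all genes did. The 4 genes higher in the directly exposed group's vehicle were all anterior and included Hoxa2, Hoxa3 and Hoxb1. Hoxb1, a hindbrain gene that answers to retinoic acid, was at 4.94, 4.28 and 4.70 CPM there and at 1.21, 1.05 and 1.10 CPM in the derived vehicle group. The 21 lower genes included 1 of the 8 anterior genes, Hoxd3. Hoxc10 was at 3.26, 3.15 and 3.07 CPM against 15.9, 20.7 and 20.03 CPM, and Hoxc6 at 2.66, 1.96 and 2.24 CPM against 9.72, 10.9 and 11.5 CPM, with log2 differences of -2.56 ± 0.15 and -2.22 ± 0.15 (limma adjusted p = 6.67e-10 and 2.80e-09). So the groups did not overlap at any of these genes. The directly exposed vehicle cells had received ethanol themselves and the derived ones had not, and the separate inductions and this step cannot be told apart.

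The vehicle groups of the 2 iPSC experiments differed in 10 of 38 HOX genes, where 28.1% of all genes did. Hoxc10 was lower in the dose series (2.11 to 2.23 against 4.60 to 5.31 CPM, log2 difference -1.19 ± 0.15, limma adjusted p = 1.06e-05). Hoxd3 and Hoxd4, overlapping genes, were higher there by log2 differences of 1.73 ± 0.24 and 0.76 ± 0.18. Hoxb1 had no read in the propagation vehicle libraries and 0.143 to 0.402 CPM in the dose series. The count fell to 6 without propagation vehicle replicate 3.

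In the iPSC dose series, 21 HOX genes passed the filter on low values (at least 0.5 CPM in 3 libraries) and 18 did not. With 1 µM BPS 6 of the 21 rose, where 8.54% of all 16349 genes changed. With 50 µM 12 rose, where 26.4% changed, and with 100 µM 8 rose, where 30.7% changed. None of the 21 fell in this fit. Hoxb1, one of the 18 below the filter, was at 0.143, 0.2998 and 0.402 CPM in vehicle and at 0.108, 0.118 and 0.0276 CPM with 1 µM, and it was called lower at each dose in a fit of all 42 libraries and at 100 µM with no filter. The median log2 difference of the 21 genes was 0.43, 0.51 and 0.40 at 1, 50 and 100 µM, against -0.01, 0.00 and 0.00 over all genes. The 3 contrasts share their vehicle libraries. Hoxb7 and Hoxd11 (0.421 CPM) had vehicle means under 0.5 CPM, so the filter may have favoured their upward differences. Neither was called at any dose. The genes that rose were central and posterior members of HoxB, HoxC and HoxD. The filter bears on this, since 2 of the 8 anterior genes passed it, against 9 of 15 central and 10 of 16 posterior ones. Of the 2 HoxA genes that passed the filter, Hoxa7 among them, 0 were called.

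Hoxb4, a central gene known from blood stem cells, was at 0.714, 0.999 and 0.439 CPM in vehicle and at 1.40, 1.83 and 1.41 CPM with 1 µM. It stood at 1.36, 2.05 and 1.92 CPM with 50 µM and at 1.40, 1.96 and 1.62 CPM with 100 µM. All 9 exposed libraries lay above the 3 vehicle libraries, and the 3 doses overlapped. The log2 differences were 1.14, 1.32 and 1.23 ± 0.25 (SE, limma adjusted p = 0.00706, 0.000691 and 0.00103). Hoxb13, the most posterior HoxB gene and a prostate regulator, rose from 0.785, 0.833 and 0.767 CPM to 1.46, 1.83 and 1.49 CPM with 1 µM, a log2 difference of 0.97 ± 0.19 (limma adjusted p = 0.00339). It was at 1.36 to 1.80 CPM with 50 µM and at 1.24 to 1.76 CPM with 100 µM, again above every vehicle library.

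Hoxd9 was at 0.928, 0.966 and 1.75 CPM in vehicle and at 1.81, 2.31 and 3.01 CPM with 1 µM (log2 difference 0.98 ± 0.21, limma adjusted p = 0.00722). Vehicle replicate 3 nearly reached the lowest exposed library. Hoxc5, a central HoxC gene, was at 1.43, 1.33 and 1.24 CPM in vehicle and at 2.43, 2.01 and 1.99 CPM with 1 µM (0.67 ± 0.15 on the log2 scale, limma adjusted p = 0.00999), with a higher mean at 50 µM (2.37 to 2.58 CPM) and a lower one at 100 µM (1.59 to 2.05 CPM). Hoxd4 and Hoxc10 rose by log2 differences of 0.51 and 0.46 with 1 µM, by 0.75 and 0.57 with 50 µM and by 0.59 and 0.38 with 100 µM. These 6 genes were called at all 3 doses. Hoxb9 and Hoxd8 joined them at both higher doses (0.51 and 0.68 with 50 µM), and Hoxc4, Hoxc6, Hoxc9 and Hoxc12 with 50 µM. Hoxc13, at 14.7, 15.7 and 17.9 CPM in vehicle and 18.3, 18.7 and 18.2 CPM with 100 µM, was not called at any dose. The summed HOX level was 66.8 ± 3.05 CPM in vehicle (SD, n = 3) and 78.4 ± 2.46, 87.0 ± 5.93 and 82.2 ± 3.44 CPM at the rising doses.

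**Figure D2:**
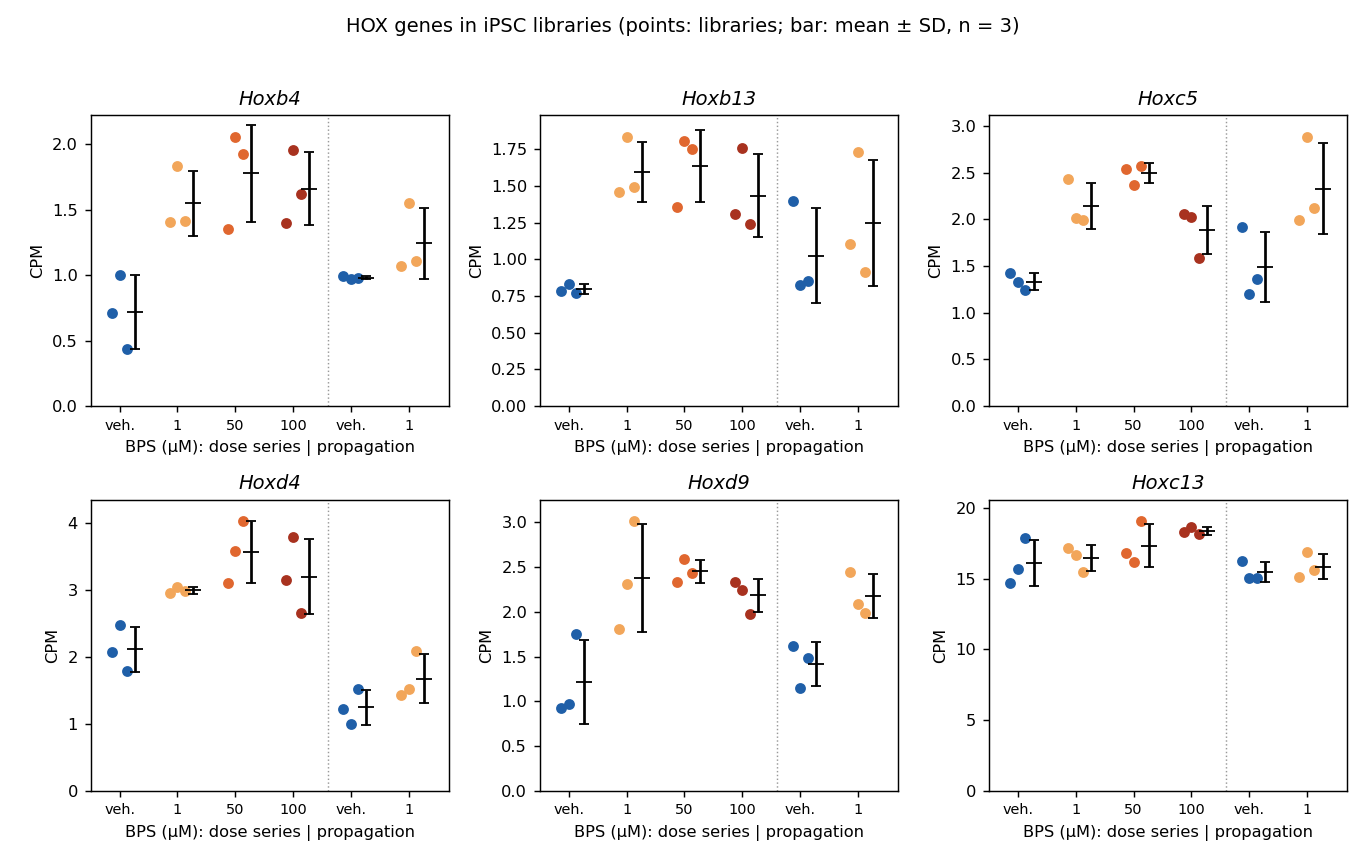
CPM of 6 HOX genes in the iPSC libraries, as points for libraries and a bar for mean ± SD (n = 3), with the dose series (vehicle, 1, 50 and 100 µM BPS) left of the dotted line and the propagation experiment (vehicle, 1 µM) right of it. All 9 exposed dose-series libraries of Hoxb4, Hoxb13, Hoxc5, Hoxd4 and Hoxd9 lie above the vehicle libraries, while those of Hoxc13 overlap them with 1 and 50 µM.

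The counts rest in part on single libraries. With 1 µM, 3 HOX genes were called without vehicle replicate 1 or without 1 µM replicate 3, with 50 µM 7 without vehicle replicate 1 or 50 µM replicate 3, and with 100 µM 5 without 100 µM replicate 2. Hoxb4 was called at every dose in the 14 alternative settings that tested it and did not pass the filter of 2 CPM. Beside these changes, the summed pluripotency markers overlapped with 1 µM (4006 to 4057 CPM in vehicle, 3996 to 4133 CPM exposed), with all 6 expressed, while other sets differed without overlap. The primordial germ cell markers went from between 388.8 and 409.1 CPM to between 323.8 and 371.5 CPM with 1 µM, 315.6 and 343.9 CPM with 50 µM and 342.2 and 357.1 CPM with 100 µM. At the rising doses 3, 4 and 4 of the 8 were called lower, where 2.94%, 13.3% and 15.4% of all genes were. Primed epiblast markers, 3 of 4 expressed, were at 192.7 to 197.2 CPM in vehicle. They were at 159.9 to 183.4, 159.3 to 166.6 and 159.8 to 169.0 CPM at the rising doses. Dnmt3b made up most of this sum, with means of 187.1 CPM in vehicle and 164.2, 157 and 154.9 CPM at the rising doses. Otx2 was at means of 4.28 CPM and then 4.49, 3.87 and 5.90 CPM, and Pou3f1 at 2.86 CPM and then 2.56, 2.88 and 3.11 CPM. Mesoderm markers summed to 48.4 to 54.2 CPM in vehicle, 55.5 to 67.8 CPM with 1 µM, 67.8 to 72.95 CPM with 50 µM and 57.7 to 62.8 CPM with 100 µM. Their part in the HOX values was not tested.

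Promoters are shown for Hoxb4, Hoxd4 and Hoxd9, the 3 of the 6 genes called at all doses for which a window was held. The windows run from 250 bases before to 50 after the transcription start in RefSeq (GRCm38.p6), written in the direction of the gene, and 24 such windows were held for 22 of the 39 genes. Capitals mark TGACCT, the complement of the nuclear receptor core site AGGTCA, and TTTATGG, the site of CDX factors, both searched on both strands. The Hoxb4 window is chr11:96318017-96318316, the Hoxd4 window chr2:74721728-74722027 and the Hoxd9 window chr2:74697513-74697812, all on the plus strand.
Hoxb4: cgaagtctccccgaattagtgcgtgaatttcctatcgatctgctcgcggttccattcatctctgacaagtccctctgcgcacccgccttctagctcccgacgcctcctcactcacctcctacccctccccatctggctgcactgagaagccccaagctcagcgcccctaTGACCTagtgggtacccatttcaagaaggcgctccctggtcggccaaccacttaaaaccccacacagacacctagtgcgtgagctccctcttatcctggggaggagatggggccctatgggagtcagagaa
Hoxd4: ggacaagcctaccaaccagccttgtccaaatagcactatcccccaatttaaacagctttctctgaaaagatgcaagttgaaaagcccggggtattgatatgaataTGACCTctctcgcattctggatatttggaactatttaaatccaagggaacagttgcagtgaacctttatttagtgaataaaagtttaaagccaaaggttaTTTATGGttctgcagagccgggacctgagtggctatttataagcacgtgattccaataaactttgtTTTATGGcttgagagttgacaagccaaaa
Hoxd9: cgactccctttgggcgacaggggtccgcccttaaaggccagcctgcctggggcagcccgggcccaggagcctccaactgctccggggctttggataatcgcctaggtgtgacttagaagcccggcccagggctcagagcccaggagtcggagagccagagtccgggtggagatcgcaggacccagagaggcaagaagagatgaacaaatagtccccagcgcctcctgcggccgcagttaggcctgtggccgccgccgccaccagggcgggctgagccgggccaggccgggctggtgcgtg
AGGTCA or its complement TGACCT was in 7 of the 24 HOX windows, those of Hoxa5, Hoxb4, Hoxc4, Hoxd3, Hoxd4, Hoxd8 and Hoxd10, and in 16.3% of all 32851 windows. TTTATGG or its complement CCATAAA was in the Hoxd4 window alone, where it lies at positions 206 and 272, and in 2.75% of all windows. The Hoxd9 window holds neither run of letters. The GC content was 58% for Hoxb4, 39.7% for Hoxd4 and 68.3% for Hoxd9, with a median of 57.7% over the HOX windows and 52.7% over all. A match describes these letters and is no measure of binding.

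In the propagation iPSCs, 1 µM BPS gave no called HOX gene among the 18 that passed the filter, where 0.0128% of all 15572 genes, 2 in number, were called by limma. Before adjustment, 1744 genes had p under 0.05, 5 of them HOX genes, and limma-voom called 0. A fit of all 42 libraries called 2046 genes, 8 of them HOX genes. The median log2 difference of the 18 was 0.33 against 0.00 over all genes. Of the 18 means 14 were higher, where 50.58% of all genes had a higher mean. All 3 BPS libraries lay above all 3 vehicle libraries for 6 of the 18 genes (Hoxa7, Hoxb4, Hoxb9, Hoxc5, Hoxc8 and Hoxd9), where 10.9% of all genes did so. Hoxb9 was at 6.51, 7.34 and 5.94 CPM in vehicle and at 8.99, 10.6 and 10.7 CPM with BPS (log2 difference 0.61 ± 0.12, limma adjusted p = 0.319), and Hoxd9 at 1.62, 1.15 and 1.49 CPM and at 2.45, 2.09 and 1.99 CPM (0.62 ± 0.18). Without BPS replicate 2, 1484 genes were called, Hoxb9 among them. The summed HOX level was 66.3 ± 1.54 CPM in vehicle and 78.1 ± 2.60 CPM with BPS. The sums of marker sets differed too, without overlap. Primordial germ cell markers went from between 418.5 and 427.3 CPM to between 330.4 and 382.0 CPM, and mesoderm markers from between 38.5 and 39.99 CPM to between 44.8 and 48.4 CPM. Primed epiblast markers went from between 148.3 and 159.6 CPM to between 122.2 and 145.1 CPM. That sum was mostly Dnmt3b (means of 144.3 and 127.6 CPM). The means of Otx2 (5.21 and 6.45 CPM), Pou3f1 (3.02 and 3.06) and Fgf5 (0.0767 and 0.186) were higher with BPS. The part of these marker sets in the HOX values was not tested.

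Whether the response to 1 µM differed between the iPSC experiments was tested as an interaction in 1 fit. None of 20 HOX genes was called, where 0% of all 16233 genes were (limma). Before adjustment, 3 had p under 0.05 by limma, where 693 of all 16233 genes did. Of the HOX genes, limma-voom called 0, and a fit of all 42 libraries called 1, Hoxb1. The p that misses the threshold does not show that the responses were alike.

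In Sertoli cells, 1 µM BPS changed none of the 15 HOX genes tested, where 5.24% of all 15648 genes changed (limma). Before adjustment, p was under 0.05 by limma for Hoxb7 and Hoxc6 (2 genes), where it was for 3425 of all 15648 genes. Of the HOX genes, limma-voom called 0, and a fit of all 42 libraries called 1, Hoxa6. The median log2 difference was -0.13 against 0.01 over all genes. Of the 15 means 3 were higher, where 53.16% of all genes had a higher mean. Hoxb3 and Hoxd3 (0.524 CPM in vehicle) had means of at least 0.5 CPM in vehicle and under it with BPS, so the filter may have favoured their lower values. The BPS libraries lay wholly below the vehicle libraries for 3 of 15 genes, Hoxb7, Hoxb8 and Hoxc6, where 9.68% of all genes did so. Hoxb7, a central gene, passed the filter through the vehicle group alone, so its place in that count and its difference were favoured by the filter. It was at 0.779, 0.518 and 0.809 CPM in vehicle and at 0.314, 0.336 and 0.386 CPM with BPS, a log2 difference of -0.94 ± 0.33 (limma adjusted p = 0.103). These values rest on 9 to 21 reads a library. Hoxb9, the leading gene, was at 32.5, 31.1 and 31.9 CPM with BPS, inside its vehicle range (-0.05 ± 0.05 on the log2 scale). Sertoli markers summed to 5463 to 5692 CPM in vehicle and 4428 to 5106 CPM with BPS, and stromal markers to 1104 to 1196 and 976 to 1061 CPM. Later germ cell markers summed to 14.9 to 16.7 and 9.49 to 12.6 CPM, and smooth muscle markers overlapped (1174 to 1296 and 1151 to 1214 CPM). Their part in the HOX values was not tested.

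In granulosa cells, 1 µM BPS changed none of the 27 HOX genes tested, where 2.60% of all 15712 genes changed (limma). Before adjustment, 5 had p under 0.05 by limma, where 2412 of all 15712 genes did, and limma-voom called 0. The values leaned upward and were small. The median was 0.11 against 0.02 over all genes, and 24 of 27 means were higher, where 60.98% of all genes had a higher mean. For 5 of 27 genes (Hoxb9, Hoxc6, Hoxc8, Hoxc9 and Hoxd8) the BPS libraries lay wholly above the vehicle libraries, where 14.1% of all genes did so. Hoxa9 had the highest difference (0.38) and a vehicle mean of 0.493 CPM, under the limit, so the filter may have favoured its upward difference. Hoxc8 was at 19.6, 20.9 and 18.1 CPM in vehicle and at 22.0, 22.3 and 22.8 CPM with BPS (log2 difference 0.20 ± 0.06, limma adjusted p = 0.0712). It was called without vehicle replicate 2. Stromal markers summed to 3231 to 3466 CPM in vehicle and 3471 to 3819 CPM with BPS, smooth muscle markers to 2158 to 2223 and 2401 to 2516 CPM, and the Sertoli list to 2226 to 2363 and 2475 to 2744 CPM. Their part in the HOX values was not tested.

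The test of the difference between the Sertoli and granulosa responses called none of 28 HOX genes, where 1.28% of all 16791 genes were called (limma). Before adjustment, 6 had p under 0.05 by limma, where 2374 of all 16791 genes did, and limma-voom called 0. Hoxb7 came nearest, with a response lower in Sertoli cells by -1.09 ± 0.27 on the log2 scale (limma adjusted p = 0.0543). It was called with the filter at 2 CPM and without Sertoli vehicle replicate 2 or Sertoli BPS replicate 3, and Hoxc6 was called without Sertoli BPS replicate 2.

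In directly exposed PGCLCs, 1 µM BPS changed 5 of the 35 HOX genes tested, where 26.6% of all 16342 genes changed. The genes that fell included the anterior gene Hoxa3 and the posterior gene Hoxa9, and Hoxb6 and Hoxd9 rose. Hoxa3, known from the pharyngeal arches, was at 3.61, 2.61 and 3.16 CPM in vehicle and at 2.10, 1.74 and 2.17 CPM with BPS (-0.63 ± 0.16, limma adjusted p = 0.00856), without overlap. Hoxb6, a central gene of the trunk, was at 1.33, 1.22 and 1.504 CPM and rose to 2.41, 2.55 and 2.34 CPM, the largest called difference at 0.84 ± 0.16 (limma adjusted p = 0.00149). Hoxd9, the leading PGCLC gene, went from 35.9, 36.0 and 39.7 CPM to 40.8, 44.9 and 42.3 CPM (0.20 ± 0.05, limma adjusted p = 0.00947). Hoxa9, known from blood and limb, went from 16.7, 16.1 and 14.1 CPM to 13.8, 13.1 and 13.4 CPM (-0.22 ± 0.07, limma adjusted p = 0.0324).

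The groups did not overlap for any of these genes, and the steps of Hoxd9 and Hoxa9 were small. The median log2 difference of the 35 HOX genes was -0.15 against 0.02 over all genes, and the uncalled genes ran from -0.93 (Hoxc11, adjusted p = 0.0527 by limma) to 0.36 (Hoxa13). Hoxc11 passed the filter through its vehicle group alone. The summed HOX level was 169.6 ± 5.11 CPM in vehicle and 166.6 ± 2.87 CPM with BPS. The count was 3 without vehicle replicate 1 or vehicle replicate 2 and 11 without BPS replicate 1, and a fit of all 42 libraries called 0 HOX genes. Hoxb6 was called in the other 13 alternatives. Cell type markers moved with these values, where 15.4% of all genes were called higher and 11.3% lower. All 6 pluripotency markers fell (summed 2528 to 2594 CPM in vehicle, 1979 to 2218 CPM with BPS) and 5 of 8 primordial germ cell markers fell (357 to 369 CPM, then 295 to 334 CPM). Of the mesoderm markers 6 of 8 rose (559 to 584 CPM, then 730 to 839 CPM) and of the endoderm markers 3 of 4 (28.1 to 30.3 CPM, then 36.0 to 43.1 CPM). Their part in the HOX values was not tested.

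In PGCLCs derived from BPS-exposed iPSCs, the HOX genes stood higher than in those from vehicle iPSCs, but no gene passed the test: 0 of the 37 HOX genes tested and 0% of all 16268 genes by limma. Before adjustment, 2578 genes had p under 0.05, 29 of them HOX genes, and limma-voom called 0. A fit of all 42 libraries called 721 genes, with Hoxb9 and Hoxc4 (2) among them. The summed HOX level was 268.2, 312.6 and 303.6 CPM in vehicle and 414, 500.2 and 366.7 CPM with BPS in the parent iPSCs, so the groups did not overlap and BPS replicate 2 was the highest. The median log2 difference of the 37 genes was 0.54, a 1.46-fold higher level, against 0.00 over all genes. Of the 37 means 36 were higher, where 50.56% of all genes had a higher mean. For 24 of the 37 genes all 3 BPS libraries lay above all 3 vehicle libraries, where 11.4% of all genes did so. The 37 genes were read from the same libraries, so their values are not independent.

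Hoxd9 was at 32.3, 38.7 and 34.6 CPM in vehicle and at 50.2, 66.6 and 42.3 CPM with BPS in the parents (log2 difference 0.57). Hoxa9 was at 21.5, 23.0 and 23.2 CPM and at 31.3, 42.9 and 32.3 CPM (0.64 ± 0.12, limma adjusted p = 0.194), and Hoxb9 at 8.28, 9.08 and 7.87 CPM and at 12.6, 15.4 and 12.7 CPM (0.68 ± 0.11, limma adjusted p = 0.194). In all 3 genes the groups were apart, and BPS replicate 2 was highest. The following 2 genes, like Hoxd9, were named after their values were seen. Hoxa2, an anterior hindbrain gene, was at 0.518, 0.229 and 0.478 CPM and at 0.747, 1.12 and 0.892 CPM (1.17), and only 1 of its vehicle libraries reached the filter, so it was tested through the BPS group. Hoxc12 had the only lower mean (-0.60), from 0.575, 0.655 and 0.646 CPM to 0.359, 0.88 and 0.198 CPM, with overlapping groups, and passed the filter with all 3 vehicle libraries and 1 BPS library. The summed pluripotency markers were at 1881 to 2427 CPM in vehicle and 1322 to 2013 CPM with BPS in the parents, those of primordial germ cells at 482 to 678 and 413 to 520 CPM, and those of mesoderm at 415 to 579 and 480 to 723 CPM. All 3 sets overlapped between the groups, none of their genes was called, and their part in the HOX values was not tested.

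**Figure D3:**
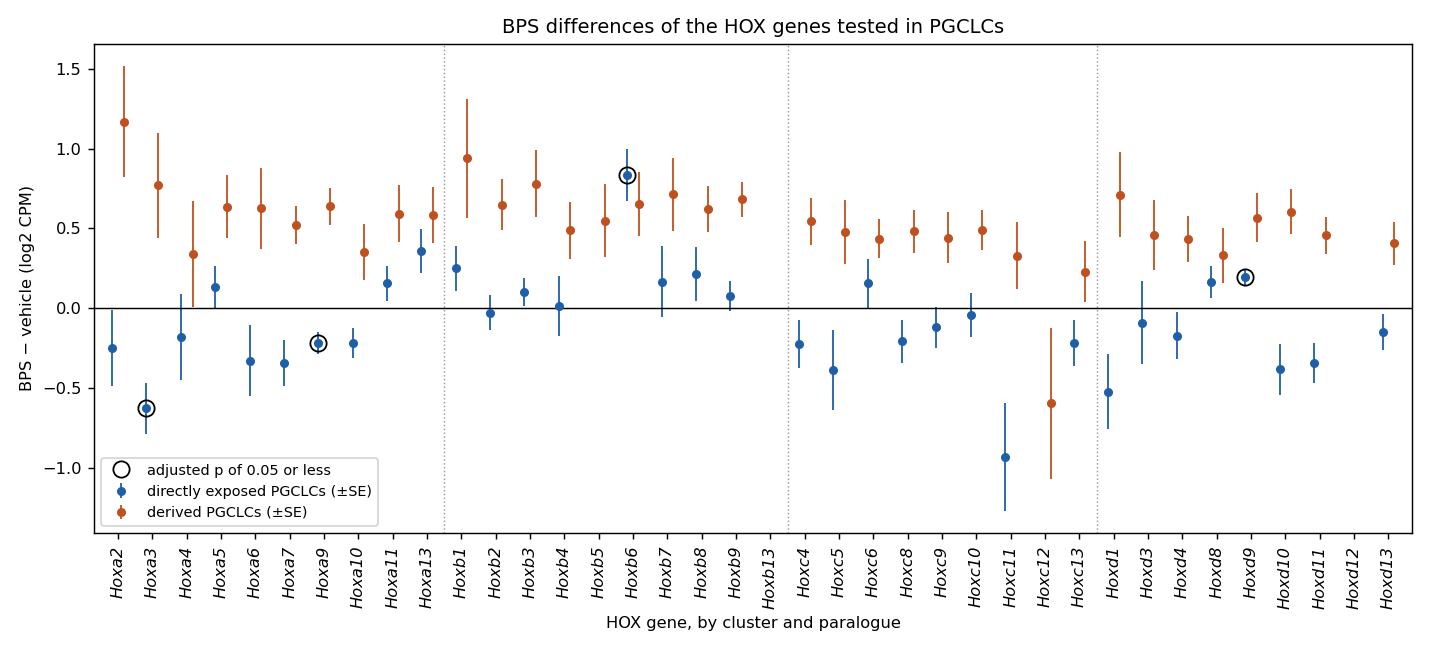
Difference between BPS and vehicle (log2 CPM ± SE, n = 3 against 3 libraries) of the HOX genes shown in directly exposed PGCLCs (blue) and in PGCLCs derived from exposed iPSCs (orange), in order of cluster and paralogue. The circled genes, Hoxa3, Hoxa9, Hoxb6 and Hoxd9, passed the test in directly exposed PGCLCs, and the derived values lie above 0 but for Hoxc12.

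The difference between the PGCLC responses was tested as an interaction over 12 libraries. It called 5 of 37 HOX genes, where 1.97% of all 16894 genes were called, and in all 5 the response was lower in the directly exposed PGCLCs. Hoxa9 differed by -0.86 ± 0.15 on the log2 scale (limma adjusted p = 0.0119), falling in one experiment as given above and standing higher in the other. Hoxd11, a limb gene, was at 4.73, 4.25 and 4.63 CPM and with direct BPS at 3.70, 3.00 and 4.07 CPM, and in the derived cells at 15.6, 15.9 and 18.3 CPM and 21.2, 26.7 and 20.7 CPM. The interaction was -0.80 ± 0.18 (limma adjusted p = 0.037). Hoxd10 went from 2.70, 2.77 and 3.71 CPM to 2.55, 2.42 and 2.00 CPM with direct BPS, and from 10.2, 8.91 and 11.2 CPM to 13.4, 18.6 and 14.4 CPM in the derived cells (-0.99 ± 0.22, limma adjusted p = 0.0401). For these 2 genes the pairs of groups were apart in opposite directions.

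Hoxb9 was nearly level with direct BPS (5.53, 5.82 and 5.40 CPM, then 6.14, 5.98 and 5.57 CPM), and the interaction was -0.61 ± 0.14 (limma adjusted p = 0.0394). The number called was 1 without any single one of 6 libraries (each of the directly exposed vehicle replicates, BPS replicate 2 of the directly exposed, vehicle replicate 3 and BPS replicate 2 of the derived), 2 without BPS replicate 1 or 3 of the directly exposed or vehicle replicate 1 of the derived, 3 without BPS replicate 1 of the derived, and 8 without BPS replicate 3 of the derived. Hoxa9 was called in every one of these. The number was 2 with limma-voom, 2 in a fit of all 42 libraries, which did not call Hoxa9, and 3 with no filter. The 2 inductions differ in when BPS was given and in their vehicle levels, as given above, which cannot be told apart here.

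**Figure D4:**
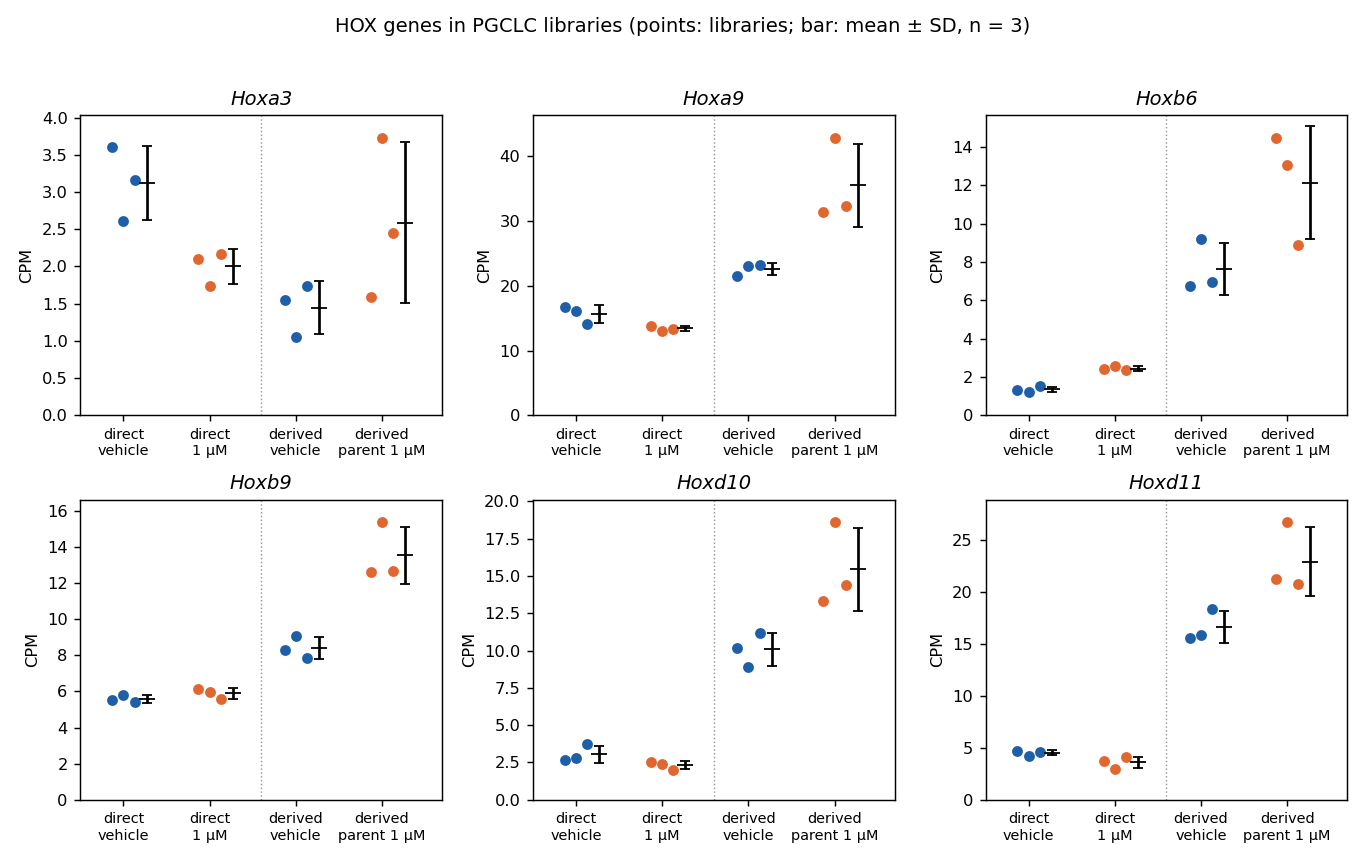
CPM of 6 HOX genes in the PGCLC libraries, as points for libraries and a bar for mean ± SD (n = 3), with the directly exposed groups left of the dotted line and the PGCLCs derived from vehicle or exposed iPSCs right of it. Hoxa9, Hoxd10 and Hoxd11 stand lower with BPS on the left and higher on the right, Hoxa3 is lower with BPS on the left, and Hoxb6 is higher with BPS on the left without overlap.

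Partners and regulators of the HOX proteins were read from lists of genes, of which those beyond the 4 smallest adjusted p of a list and comparison are named after their values were seen. The 9 TALE cofactors (PBX, MEIS and PKNOX proteins) were all expressed in every group. With 1 µM in the dose-series iPSCs, where 8.54% of all genes changed, 2 of them rose, Meis2 (log2 difference 0.23 ± 0.06) and Pknox2 (0.32 ± 0.08), and none fell. In directly exposed PGCLCs, where 26.6% of all genes changed, Pbx3 (0.45 ± 0.06), Pbx2 (0.23), Meis3 and Pknox1 were among the 5 that rose. Meis1 (-0.58 ± 0.12) and Meis2 (-0.33 ± 0.06) fell there. None was called in Sertoli or granulosa cells. Nor was any in the propagation iPSCs or the derived PGCLCs, where 0.0128% and 0% of all genes were, so the lack of a call there says little. Between the PGCLC experiments the response of Meis2 (-0.74 ± 0.16) and Meis1 (-0.86 ± 0.20) was lower in the directly exposed cells (limma adjusted p = 0.0345 and 0.0498).

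Of the inducers and signals that act on the clusters, 10 of 16 passed the filter in the dose series. Cdx1, Cdx2 and T, all activators of HOX genes in the posterior embryo, rose at each dose, Cdx1 by log2 differences of 0.45, 0.68 and 0.53 and Cdx2 by 0.56, 0.88 and 0.83, and none of the list fell. In directly exposed PGCLCs 5 of 15 rose and 2 fell, where 26.6% of all genes changed. Cdx2 rose by 0.49 ± 0.04, Wnt3 by 0.35 ± 0.05, the retinoic acid receptor gene Rarg by 0.23 ± 0.04, T by 0.33 ± 0.06 and Cyp26a1, which breaks down retinoic acid, by 0.35 ± 0.06. Rarb, another retinoic acid receptor gene, fell by 1.30 on the log2 scale and Cdx1 by 0.16. Of the list, none was called in the somatic cells. The same held in the propagation iPSCs and the derived PGCLCs, where 0.0128% and 0% of all genes were called, so it says little there.

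Of the 20 Polycomb and trithorax genes, 0 rose and 1 fell with 1 µM in the dose series, 1 rose and 4 fell with 50 µM, and 1 rose and 2 fell with 100 µM. Of all genes, 8.54%, 26.4% and 30.7% changed at these doses, so the list did not stand out by number. Ezh2, the H3K27 methyltransferase, fell at each dose (-0.23, -0.30 and -0.31, each ± 0.05). Bmi1 fell with 50 and 100 µM and Kdm6a and Rnf2 with 50 µM, while Cbx8 rose with 50 µM and Pcgf2 with 100 µM. In Sertoli cells Suz12 rose (1 gene) and Kdm6b, Kmt2a and Kmt2b fell (3), where 5.24% of all genes changed. In granulosa cells none was called, where 2.60% of all genes changed. In directly exposed PGCLCs, where 26.6% of all genes changed, 6 rose and 5 fell, among them Cbx2 (0.44 ± 0.05) and Jarid2 (-0.30 ± 0.03), a PRC2 subunit. Of the 10 noncoding transcripts of the clusters, at most 7 passed the filter in a BPS comparison and none was called. Hotairm1, a HoxA transcript, differed by 0.31 with 1 µM in the dose series. In the derived PGCLCs these transcripts summed to 10.4 to 13.6 CPM in vehicle and 14.4 to 19.6 CPM with BPS in the parents.

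The genes on either side of the clusters did not all share the direction of the HOX genes. With 1 µM in the dose series, where 8.54% of all genes changed, 1 of the 10 tested rose, Calcoco2 (0.47 ± 0.07), and 1 fell, Cbx5 (-0.21 ± 0.06). In directly exposed PGCLCs 3 rose and 3 fell, where 26.6% of all genes changed. Evx1, a homeobox gene at the posterior end of HoxA, rose by 0.61 ± 0.05 (limma adjusted p = 1.93e-06) while its neighbour Hoxa13 differed by 0.36 ± 0.14 and was not called. In the derived PGCLCs none of 11 was called, where 0% of all genes were, and their median was 0.03.

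**Figure D5:**
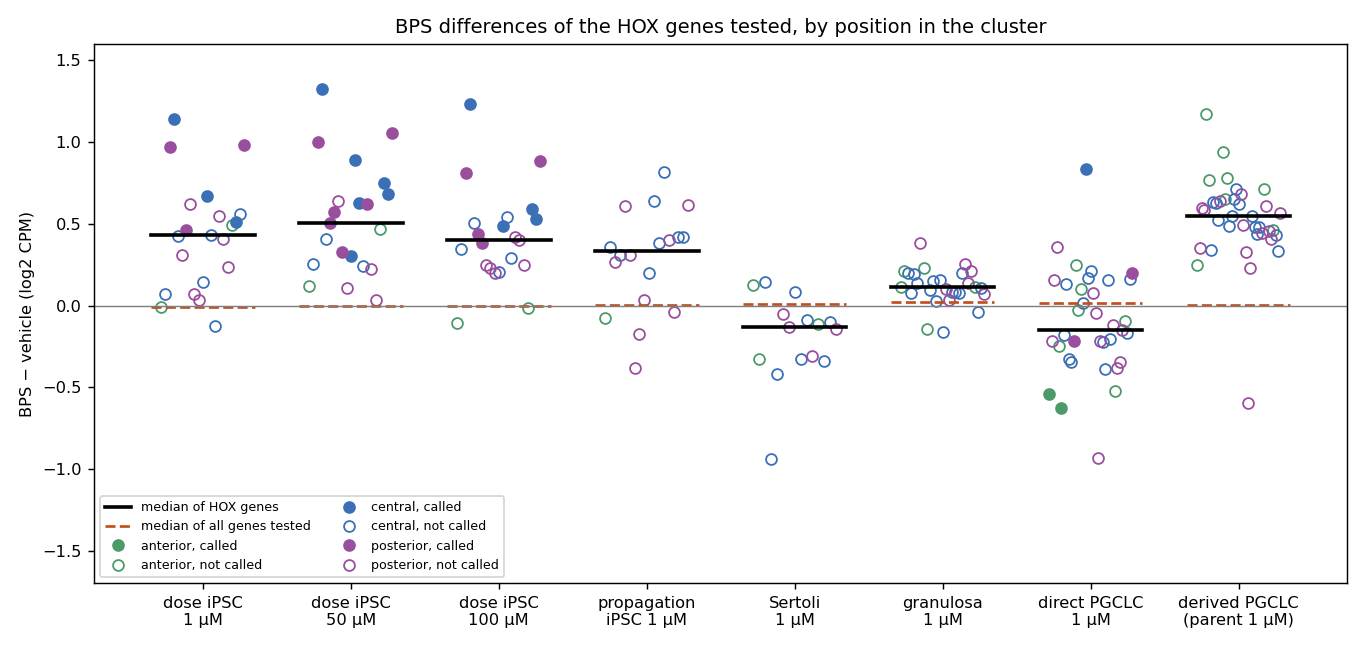
Difference between BPS and vehicle (log2 CPM) of each HOX gene tested in the 8 BPS comparisons, coloured by position in the cluster and filled where the adjusted p was 0.05 or less. The black line is the median of the HOX genes (0.43, 0.51, 0.40, 0.33, -0.13, 0.11, -0.15 and 0.54 from left to right), and the dashed line, the median of all genes tested, lies near 0 in each.

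Sequence overlap limits some of these values. The exons of 16 members share bases with another gene, and over 50% is shared in Hoxb3 (52.9%, with the antisense gene Hoxb3os), Hoxd3 (62.9%) and Hoxd4 (52.3%), the last pair with each other and with Gm28230. Smaller shares included 34.98% in Hoxa11, with the antisense gene Hoxa11os, and 27.12% in Hoxa3, with Hoxaas2, Hoxaas3 and others. Hoxa11os had a mean of 0.0301 CPM in the propagation vehicle iPSCs and 6.04 CPM in the derived vehicle PGCLCs. Whether the counting used strand is not given in the sources used here, so the reads of these overlapping genes cannot be told apart. The other 23 members share no exon base.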

How the data were processed

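The authors made stranded poly(A) libraries, aligned the reads to mm10 with Rsubread, and scaled gene counts by TMM in edgeR; their own versions, the annotation and the strand setting are not stated in the sources used here. The deposited table holds log2 CPM for 22186 genes across 42 libraries, with 0.03133 CPM added before the log. CPM was recovered by reversing this, and at least 99.9% of values lay within 0.05 reads of a whole number. Groups came from the sample labels. Each comparison was fitted with limma 3.58.1 (R 4.3.3, mean-variance trend) on the deposited log2 values over all genes with at least 0.5 CPM in at least 3 libraries, and called at a Benjamini-Hochberg adjusted p of at most 0.05. The code was tested on simulated data. The members and all lists were chosen with earlier results of these data known. Called members are named unless not reported here, with full statistics for up to 8 of the smallest adjusted p, and up to 4 genes of each other list. Cluster positions and exon lengths come from GENCODE M21. Alternatives were other pseudocounts, filters, scaling, fits, limma-voom, a replicate block and leaving out each replicate. The block was not used in the main fits, since same-numbered samples did not deviate together. No 2 libraries agreed within sampling noise. Some genes are counted but not reported here.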

Additional observations from a re-analysis of the deposited data

Results flagged for a closer look

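The test of the difference between the responses of directly exposed and derived PGCLCs (the interaction in limma) passed the threshold for Hoxa9, Hoxd11, Hoxb9 and Hoxd10. On the log2 scale the response in the directly exposed cells was lower by -0.86 for Hoxa9, -0.80 for Hoxd11, -0.61 for Hoxb9 and -0.99 for Hoxd10. The limma adjusted p-values were 0.0119, 0.037, 0.0394 and 0.0401. Of these 4, Hoxa9 was also called in the directly exposed cells on their own, and none in the derived cells on their own.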

How the results depend on the processing

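The 17 counts of called HOX genes were recomputed under each alternative. The fit of all 42 libraries gave 8 in propagation iPSCs (0 in the report), 2 in derived PGCLCs (0), 1 in Sertoli cells (0), 0 in directly exposed PGCLCs (5), 2 for the PGCLC interaction (5) and 1 for the iPSC interaction (0). Over all genes it called 2046 in propagation iPSCs, 1619 in directly exposed PGCLCs and 721 in derived ones, against 2, 4354 and 0, and in the somatic cells 207 (Sertoli) and 38 (granulosa), against 820 and 409. At each dose it also called Hoxb1 lower, as did the fit without a filter at 100 µM. The fit of the 6 libraries compared gave 3 at 1 µM (723 genes, against 1397) and 5 between the vehicle iPSCs. The filter at 2 CPM gave 5 at 100 µM and 1 for the Sertoli and granulosa interaction, and no filter gave 3 and limma-voom 2 for the PGCLC interaction.

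Same-numbered samples correlated by -0.40 to 0.18, so the numbers were not taken as pairs. The replicate block gave 2 for the PGCLC interaction and 1, Hoxb7, for the Sertoli and granulosa interaction; over all genes it called 1298 in Sertoli cells, and it left no other count outside the 1.5-fold limit.

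Leaving out 1 library gave 3 to 6, 7 to 12 and 5 to 8 at 1, 50 and 100 µM, 3 to 11 in directly exposed and 0 to 0 in derived PGCLCs, 0 to 1 in propagation iPSCs, and in the somatic cells 0 to 0 (Sertoli) and 0 to 1 (granulosa). It gave 1 to 8 for the PGCLC interaction, 0 to 0 for the iPSC one and 0 to 1 for the somatic one, and 6 to 11 between the vehicle iPSCs. Between the other vehicle groups it gave 31 to 32, 28 to 30, 35 to 36, 37 to 37 and 20 to 24, in the order of the report. The sign turned for Hoxd9 in Sertoli cells without BPS replicate 1 (log2 differences of -0.338 to 0.0229 over the libraries left out) and for Hoxc12 in the iPSC interaction without propagation BPS replicate 2 (-0.0633 to 0.4097). Over the single genes, 1857 recomputed values kept their direction and side of the threshold, 146 lost the call, 12 gained it and 2 turned. The causes were not tested.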
